A study of Mus musculus with 12 samples.

Results

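The genes of the matrix metalloproteinases (Mmp), of the ADAMTS proteinases and their ADAMTS-like relatives (Adamts, Adamtsl) and of the tissue inhibitors of metalloproteinases (Timp) were followed in mouse pancreatic islets before and after transplantation into fat. Members were taken by symbol alone, and 51 of the 23234 gene rows of the table matched: 23 Mmp, 4 Timp, 19 Adamts and 5 Adamtsl genes. The 12 libraries were RNA from C57BL/6 mice in 3 groups of 4: isolated islets that were not transplanted, islet grafts recovered on day 60 and islet grafts recovered on day 120. The grafts had been placed in the inguinal subcutaneous white adipose tissue, a layer of fat beneath the skin near the hind leg. The comparisons ask how far the RNA levels of these genes differed after transplantation. No other genotype, drug or disease model is named for any group. The labels give neither the animals' age nor whether the numbered libraries of a group came from separate animals or islet preparations, so a p-value here reflects library-to-library spread alone, and some of that spread may be technical.

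Matrix metalloproteinases are zinc-dependent enzymes that are made as inactive precursors and, once activated, cut collagens, elastin, proteoglycans and other proteins of the extracellular matrix. Timp proteins bind the active enzymes and block them, and Timp3 in addition binds to the matrix and inhibits several ADAMTS enzymes. ADAMTS enzymes are secreted proteinases with thrombospondin repeats that trim procollagens or cut the large proteoglycans, while ADAMTS-like proteins carry the repeats without the catalytic domain. In fat and in healing tissue these enzymes are known for remodelling the matrix around growing vessels and fat cells, and fibroblasts, macrophages and neutrophils are well-known producers.

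Levels are FPKM, a fragment count corrected for the length of the gene and the size of the library, so levels of different genes can be set side by side. Changes are differences of log2(FPKM + 1), which understate the change of genes near 0, and a change was called at a limma adjusted p under 0.05. A row at 0 in such a table can be a failed estimate, so zeros are given only as listed. Values of a gene are given in the order of the library numbers within a group. Depth in reads is unknown, and library totals of FPKM ran from 396769 to 786366.

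Endocrine cell markers, 10 genes, summed to between 39703 and 82553 FPKM in each of the 12 libraries. Acinar markers, 8 genes, summed to 5491 FPKM or more in isolated islets and to at most 1.42 FPKM in grafts. At both times 7 of 7 tested acinar markers were lower in grafts, where 12.3% of all tested genes were lower at day 60 and 7.03% at day 120. These 7 passed the filter given below only through the isolated islets, which favours lower calls. A pair of libraries stood apart from their groups. Day 60 library 1 had the lowest endocrine sum of all 12 libraries, 39703 FPKM, and the highest sum of fibroblast, fat cell and macrophage markers. Islet library 1 had a duct marker sum of 445 FPKM, where the other isolated islets had 132 to 150. Results that rest on these libraries are given with and without them.

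Of the 51 members, 22 passed the filter for testing, which asked for 1 FPKM or more in 4 or more libraries, and 29 did not. At day 60, 15 of the 22 tested members were higher than in isolated islets and 0 were lower, where 31.3% of all 13433 tested genes were higher and 12.3% lower. At day 120, 10 of the 22 were higher and 0 lower, where 24.3% of all tested genes were higher and 7.03% lower. The median log2 change over the tested members was 1.72 at day 60 and 1.07 at day 120, against 0.27 and 0.30 over all tested genes. In 10 of the 22, every isolated islet library lay under 1 FPKM, so these members passed the filter only through the grafts, which favours members that were higher there, and the counts describe the tested members without weighing them against other genes. Both graft groups were compared with the same 4 isolated islet libraries, so their results are not independent. Without islet library 1 and day 60 library 1, the counts were 17 higher and 1 lower at day 60, and 13 higher and 1 lower at day 120. In that fit 42.3% of all tested genes were higher and 15.8% lower at day 60, and 42.4% and 14.0% at day 120. The day 120 count depended on single libraries. It fell to 3 without islet library 2, islet library 4 or day 120 library 4, and to 4 without islet library 3. It was 6 without day 120 library 1 or 2, and 14 without day 60 library 1. Over all tested genes the share higher at day 120 changed too. That share, 24.3% with all libraries, ran from 10.7% without islet library 4 to 35.3% without day 60 library 1. These shifts in the count are therefore not read as particular to the members. Mmp2, Mmp3 and Adamtsl5 were the 3 of the 10 day 120 calls that held whichever library was left out. Scaling by endocrine genes gave 0 higher at day 120 and quantile normalization gave 4, where 1.18% and 11.4% of all tested genes were higher. At an unadjusted p under 0.05, 0 members were lower at day 60 and 1 at day 120, which was Adamts1. The share of all tested genes at that unadjusted threshold was not counted.

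**Figure D1:**
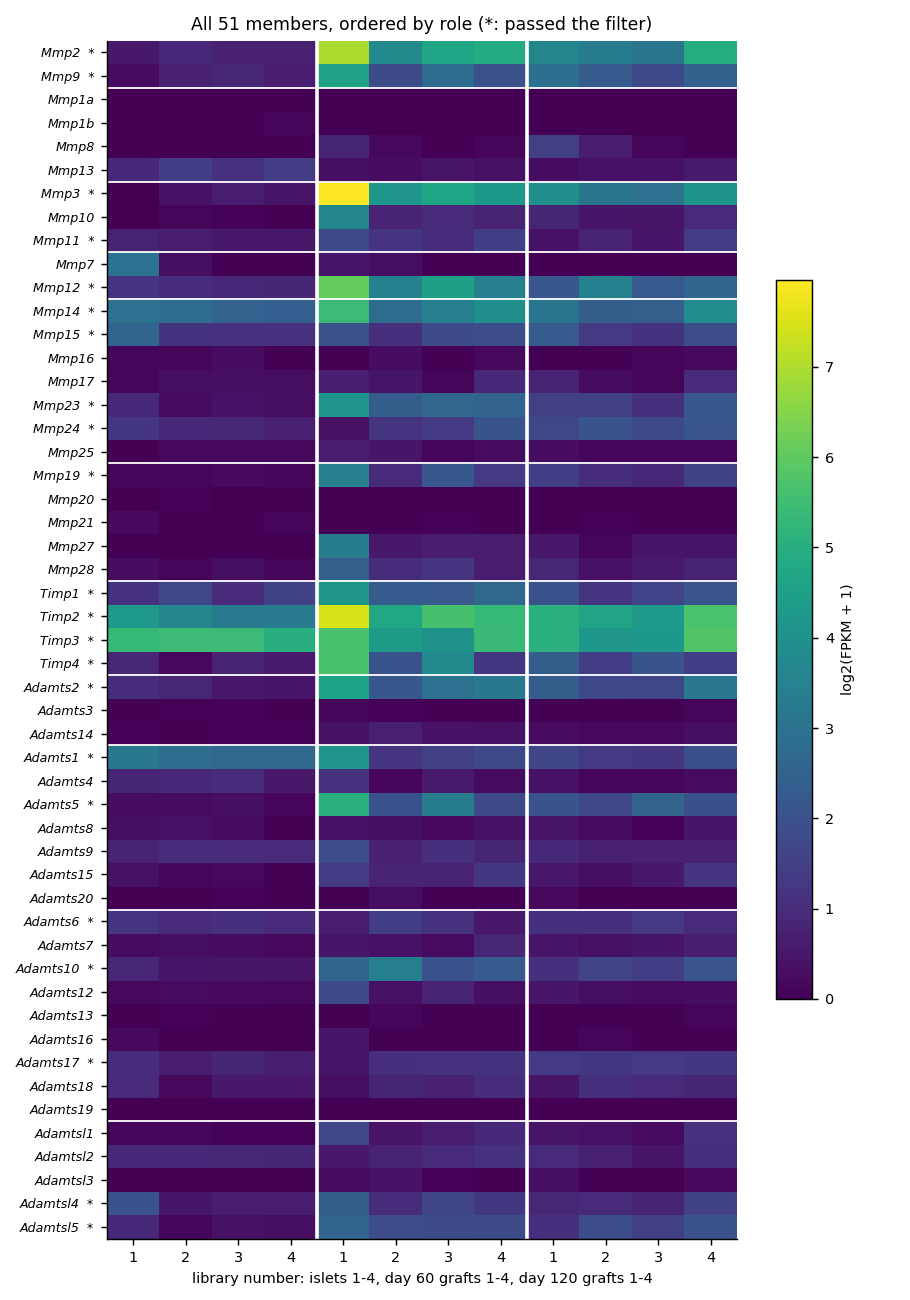
Level of all 51 members in each of the 12 libraries, as log2(FPKM + 1), with genes in rows grouped by role and libraries in columns (islets, day 60 grafts, day 120 grafts); an asterisk marks the 22 tested members. Timp3, Timp2, Adamts1 and Mmp14 stood highest in isolated islets, while Mmp2, Mmp3, Mmp12 and Timp2 were bright in the grafts, most of all in day 60 library 1.

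The order of the levels differed between the groups. In isolated islets the highest mean levels were those of Timp3 at 38.8 ± 5.66 FPKM (SD, n = 4), Timp2 at 11.7 ± 4.55, Adamts1 at 6.27 ± 1.34 and Mmp14 at 5.38 ± 1.22 FPKM. Timp2 and Mmp14 did not overlap in these libraries, while the ranges of Adamts1 and Mmp14 did, with Adamts1 above Mmp14 in each library. At day 60 the same 4 places were held by Mmp3, Timp2, Mmp2 and Timp3, with means from 31.4 to 76.8 FPKM and SDs of 16.7 to 114. Their order changed between libraries, although Timp2 was above Mmp2 in each of the 4. On day 120 these places were held by Timp2, Timp3, Mmp2 and Mmp3. Their means were 31.7 ± 14.2, 30.7 ± 17.4, 14.6 ± 10.1 and 11.3 ± 4.71 FPKM. Timp3 was above Mmp2 in each of the 4 libraries. The order of Timp2 and Timp3, and that of Mmp2 and Mmp3, changed between libraries.

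**Figure D2:**
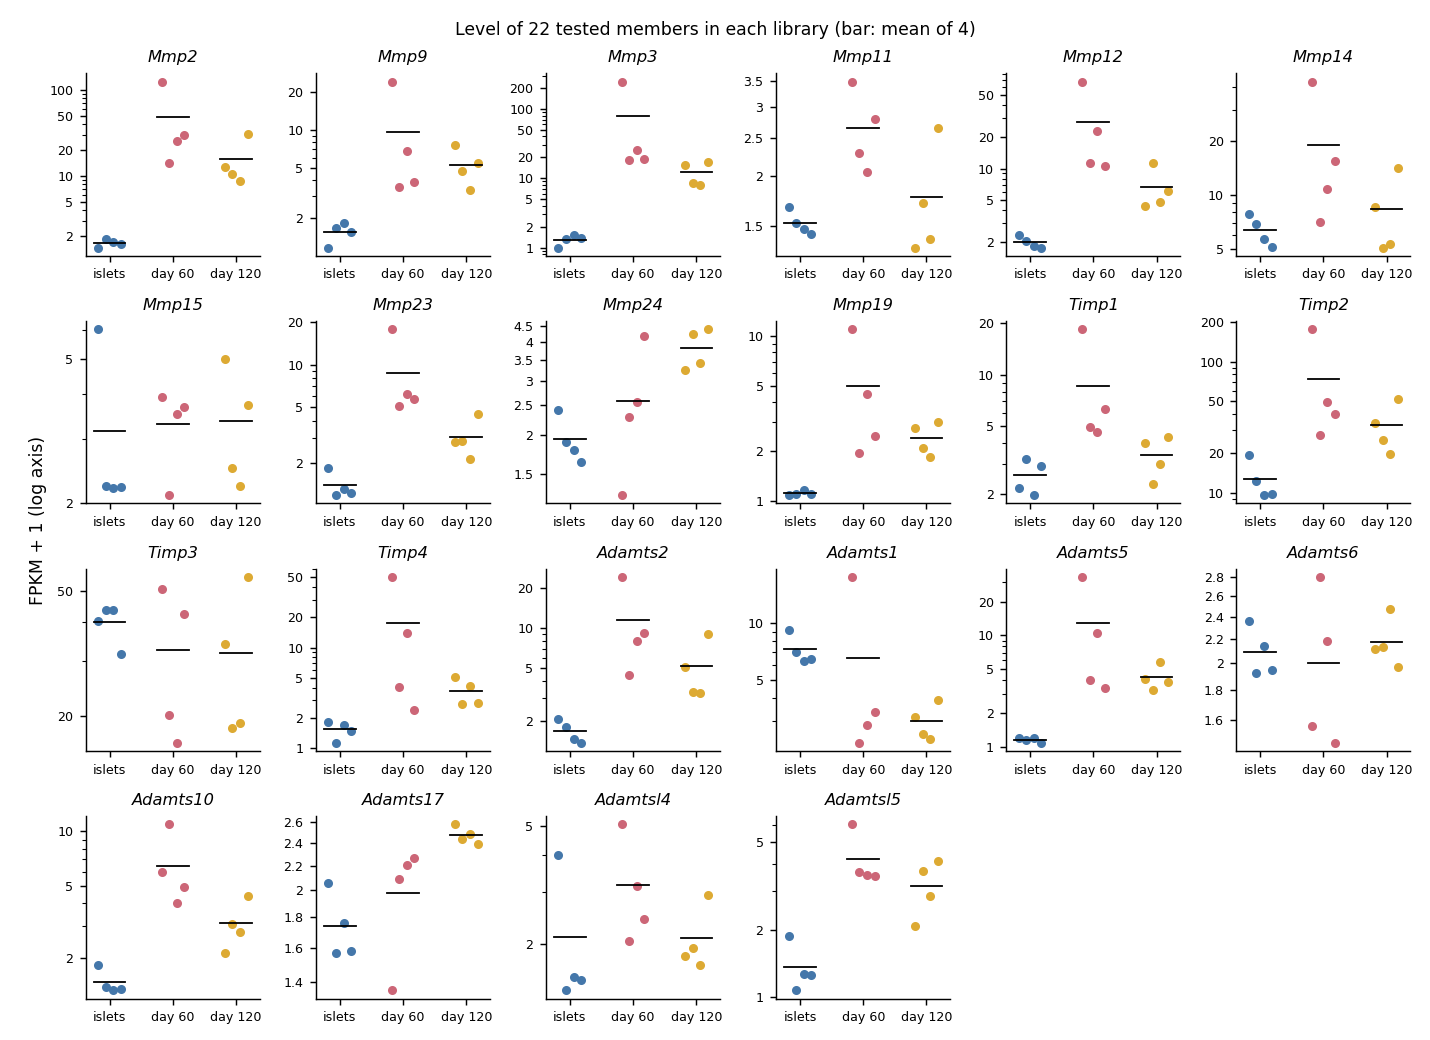
FPKM + 1 on a log axis for each tested member in each library (points, in library order within a group; the bar is the mean of 4), with a separate axis range for each gene. Mmp2, Mmp3, Mmp9, Mmp12, Adamts2 and Adamts5 show isolated islets below every graft, while Timp3 overlaps between all groups and day 60 library 1 is the highest of the 12 libraries for 16 of 22 members.

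The gelatinases Mmp2 and Mmp9, which cut denatured collagen and the collagen of basement membranes, were both higher at both times. Mmp2 stood at 0.46, 0.834, 0.676 and 0.617 FPKM in isolated islets, at 124, 13.0, 24.7 and 28.8 FPKM in day 60 grafts and at 11.7, 9.46, 7.60 and 29.5 FPKM in day 120 grafts. Every graft was thus more than 7 FPKM and every isolated islet library under 1 FPKM. The log2 change of Mmp2 was 4.37 at day 60 (SE 0.553, adjusted p = 0.000267) and 3.06 at day 120 (SE 0.553, adjusted p = 0.00364). Mmp9, which is known as a product of neutrophils and macrophages, stood at 0.167, 0.676, 0.816 and 0.547 FPKM in isolated islets, at 23.2, 2.54, 5.86 and 2.89 FPKM at day 60 and at 6.60, 3.74, 2.36 and 4.44 FPKM at day 120. Its lowest graft, at 2.36 FPKM, was above its highest isolated islet library. The log2 change of Mmp9 was 2.17 at day 60 (SE 0.497, adjusted p = 0.005) and 1.73 at day 120 (SE 0.497, adjusted p = 0.0222). Its day 120 call was lost in 4 of the 12 fits that left out 1 library (highest adjusted p = 0.0566).

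Among the stromelysins, enzymes of broad range that cut proteoglycans and can activate other metalloproteinases, Mmp3 showed the widest difference of the 22 tested members. It was listed at 0 in islet library 1 and stood at 0.311, 0.54 and 0.366 FPKM in the other isolated islets. In day 60 grafts Mmp3 was at 247, 17.3, 24.9 and 17.7 FPKM, and in day 120 grafts at 14.4, 7.59, 6.94 and 16.2 FPKM. The graft groups did not overlap with each other or with isolated islets. The log2 change was 4.90 at day 60 (SE 0.676, adjusted p = 0.000486) and 3.17 at day 120 (SE 0.676, adjusted p = 0.00738). Without day 60 library 1, the day 60 change of Mmp3 was 4.01 and that of Mmp2 was 3.75, so that both calls held without it. Mmp11, a stromelysin-like enzyme that leaves the cell already active, was at 0.678, 0.523, 0.469 and 0.429 FPKM in isolated islets, at 2.48, 1.29, 1.05 and 1.80 FPKM at day 60 and at 0.321, 0.716, 0.387 and 1.65 FPKM at day 120. It was called higher at day 60, with a log2 change of 0.77 (SE 0.235, adjusted p = 0.019), but not without islet library 4 (adjusted p = 0.0506), and the day 120 grafts overlapped the islets (0.16, adjusted p = 0.619).

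Mmp12, the macrophage elastase, stood at 1.32, 1.05, 0.845 and 0.772 FPKM in isolated islets. Its day 60 grafts were at 66.4, 10.2, 21.9 and 9.64 FPKM and its day 120 grafts at 3.44, 10.3, 3.81 and 5.09 FPKM. All grafts lay above all isolated islets, and the log2 change was 3.38 at day 60 (SE 0.494, adjusted p = 0.000596) and 1.64 at day 120 (SE 0.494, adjusted p = 0.0265). With 1 library left out, the day 120 call of Mmp12 was lost in 5 of 12 fits (highest adjusted p = 0.078). The other enzyme of that list, the epithelial matrilysin Mmp7, did not pass the filter: it was at 7.26 and 0.226 FPKM in islet libraries 1 and 2, at 0.376 and 0.223 FPKM in day 60 libraries 1 and 2, and listed at 0 in the other 8 libraries. The one high value of Mmp7 was in the islet library with the high duct marker sum, and the part of duct cells in it was not tested.

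Mmp3, Mmp12 and 8 further Mmp genes lie next to each other on mouse chromosome 9, in the order Mmp13, Mmp12, Mmp1b, Mmp3, Mmp1a, Mmp10, Mmp8, Mmp27, Mmp20 and Mmp7, with 0 other protein-coding genes between them in the RefSeq annotation of GRCm38.p6. Neighbours in this run differed widely in level. Mmp10, the second stromelysin, was listed at 0 in islet libraries 1 and 4 and stood at 0.076 and 0.063 FPKM in the other isolated islets, against 11.6, 0.697, 0.986 and 0.73 FPKM at day 60 and 0.774, 0.404, 0.327 and 0.936 FPKM at day 120. Mmp27 was listed at 0 in all isolated islets and was at 9.03, 0.466, 0.513 and 0.552 FPKM at day 60 and at 0.451, 0.112, 0.409 and 0.377 FPKM at day 120. Mmp13, an interstitial collagenase, lay the other way, at 0.858, 1.76, 1.20 and 1.59 FPKM in isolated islets, 0.231, 0.213, 0.335 and 0.27 FPKM at day 60 and 0.189, 0.296, 0.32 and 0.48 FPKM at day 120. Every isolated islet library was above every graft for Mmp13, and every graft was above every isolated islet library for Mmp10. These genes did not reach the filter and were singled out after their values were seen.

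The promoter windows of these neighbours were read to show what they share in sequence. RefSeq windows on GRCm38.p6, 250 bases before to 50 bases after the start, were at hand for 36 of the 51 members. The letters TGANTCA, which an AP-1 factor of the Fos and Jun families can bind, were searched on both strands. They were present in 8 of the 10 genes of the run and in 0 of the 26 members outside it, against 7.81% of all 32851 windows. Members were counted with a match in any of their 39 windows, while the percentages count single windows. The matches of Mmp12 lay in its window 2 alone. TATAAA on either strand was in 12 members and 13.6% of all windows, and both motifs were in 8 members and 1.54% of all windows. Mmp8 and Mmp27 were the genes of the run without TGANTCA. A match describes the letters of the window and shows no binding. The windows from 120 bases before the start to 30 bases from it are printed for Mmp3, Mmp10 and Mmp12, whose levels were higher in grafts, and for Mmp13, whose level was lower, with the TGANTCA and TATAAA matches in capitals and the rest in lower case.
Mmp3, chr9:7445702-7445851, plus strand: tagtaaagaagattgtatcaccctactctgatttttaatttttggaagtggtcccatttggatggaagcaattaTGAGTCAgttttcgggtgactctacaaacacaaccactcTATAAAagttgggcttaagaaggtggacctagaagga
Mmp10, chr9:7502222-7502371, plus strand: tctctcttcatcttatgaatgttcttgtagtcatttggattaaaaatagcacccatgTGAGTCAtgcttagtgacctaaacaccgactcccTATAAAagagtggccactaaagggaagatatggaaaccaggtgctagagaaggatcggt
Mmp12, chr9:7347254-7347403, plus strand: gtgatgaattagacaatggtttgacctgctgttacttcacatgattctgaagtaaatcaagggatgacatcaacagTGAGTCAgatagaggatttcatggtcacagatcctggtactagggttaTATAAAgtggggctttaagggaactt
Mmp13, chr9:7272394-7272543, plus strand: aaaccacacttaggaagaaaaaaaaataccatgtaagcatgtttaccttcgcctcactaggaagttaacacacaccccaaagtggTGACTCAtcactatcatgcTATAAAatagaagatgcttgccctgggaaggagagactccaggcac
In these 4 windows the first base of TGANTCA lay at -46 in Mmp3, -63 in Mmp10, -44 in Mmp12 and -35 in Mmp13, counted from the start base as 0. The first base of TATAAA lay at -7 in Mmp3, -29 in Mmp10, -16 in Mmp13 and, after the start, at 4 in Mmp12. Mmp13, whose level was lower in grafts, carried the same pair of motifs as Mmp3, Mmp10 and Mmp12. The part of the motifs in the levels was not tested. In the GENCODE annotation of GRCm38, exons of Mmp12 overlap exons of Mmp1b on the other strand. Reads of the pair cannot be told apart with this unstranded kit, but Mmp1b was listed at 0 in 11 libraries and at 0.081 FPKM in islet library 4.

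**Figure D3:**
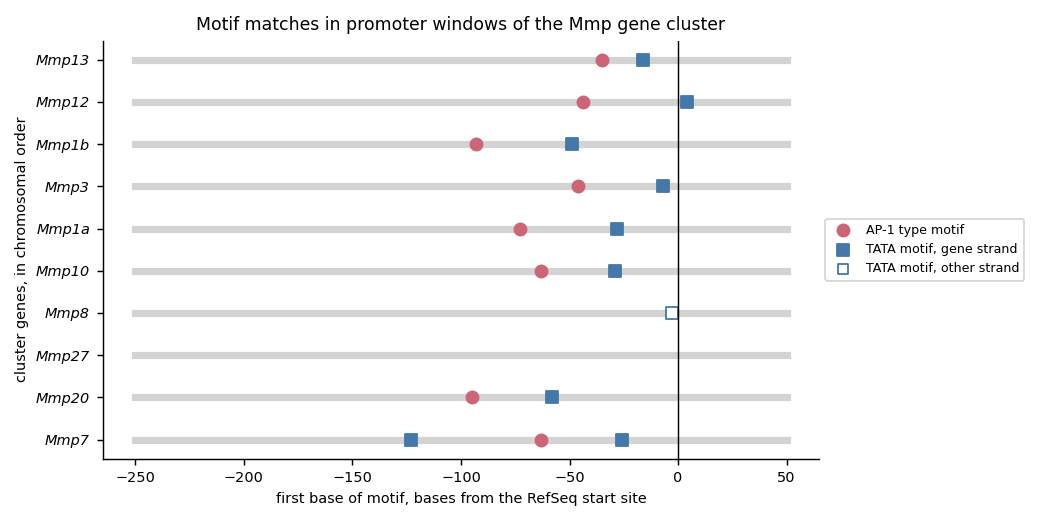
Position of the AP-1 type motif (circles) and of the TATA motif (squares, filled on the gene's strand, open on the other strand) in the promoter windows of the 10 neighbouring Mmp genes, in bases from the RefSeq start; grey bars are the windows. Mmp3, Mmp10, Mmp12 and Mmp13 each show 1 circle upstream of 1 filled square.

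RNA levels of factors known to bind such promoters were read as a list. These levels measure neither binding nor activity, and the part of the factors in the Mmp levels was not tested. Of 12 AP-1, ETS, RUNX and NF-kappa-B genes listed, 11 were tested. At day 60, 1 was higher and 5 lower, where 31.3% and 12.3% of all tested genes were. At day 120, 0 were higher and 7 lower, where 24.3% and 7.03% were. The list median of the log2 change was -1.42 and -1.48. Jund, a Jun family member of AP-1, had a mean of 214 FPKM in isolated islets, 34.3 FPKM at day 60 and 41.2 FPKM at day 120, and fell by 2.62 on the log2 scale at day 60 (adjusted p = 5.36e-06) and by 2.34 at day 120 (adjusted p = 1.71e-05). Ets2 fell by 2.42 (adjusted p = 0.000146) and by 2.08 (adjusted p = 0.000763). Fosl1, an AP-1 partner, fell by 1.42 and 1.48, and Rela, an NF-kappa-B subunit, fell by 0.94 and 1.00. Fosl1 was under 1 FPKM in every graft, so it passed the filter only through the isolated islets. The 1 gene that was higher at day 60 was Ets1, at a log2 change of 1.08 (adjusted p = 0.0279), named here after its values were seen. Fos, Fosb and Jun, also named after their values were seen, spread widely over isolated islets. Fos had an islet median of 10.1 FPKM (highest 632), against graft medians of 23.98 FPKM at day 60 and 10.7 FPKM at day 120. The islet median was 10.5 FPKM (highest 659) for Fosb and 31.9 FPKM (highest 486) for Jun. Their graft medians were lower, at 3.92 and 2.55 FPKM for Fosb and 11.3 and 7.23 FPKM for Jun.

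Of the membrane-bound enzymes, 4 of 7 were tested. Mmp14, which activates Mmp2 at the cell surface and cuts fibrillar collagen, had the highest mean of the Mmp genes in isolated islets, at 6.85, 5.87, 4.65 and 4.15 FPKM, although Mmp7 stood above it in islet library 1. It stood at 42.0, 6.07, 9.85 and 14.5 FPKM at day 60 and at 7.59, 4.09, 4.35 and 13.2 FPKM at day 120, so that both graft groups overlapped the islets. Its call at day 60 was narrow, with a log2 change of 1.26 (SE 0.475, adjusted p = 0.0476), and without day 60 library 1 the change was 0.75 and not called (adjusted p = 0.0932). In all, 10 of the 12 fits without 1 library lost this call (highest adjusted p = 0.109). At day 120 the change of Mmp14 was 0.27 (adjusted p = 0.682). Mmp14 made up 26.9% to 41.0% of the Mmp sum in isolated islets and 7.46% to 15.9% in grafts.

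Mmp23, an enzyme anchored by its amino-terminal signal, was at 0.862, 0.186, 0.312 and 0.237 FPKM in isolated islets, at 16.8, 4.09, 5.18 and 4.73 FPKM at day 60 and at 1.82, 1.85, 1.13 and 3.48 FPKM at day 120. The 3 groups did not overlap, and the log2 change was 2.45 at day 60 (SE 0.365, adjusted p = 0.000628) and 1.11 at day 120 (SE 0.365, adjusted p = 0.037). The day 120 call was lost in 6 of the 12 fits that left out 1 library (highest adjusted p = 0.107). Mmp24, a membrane-type enzyme known from nervous tissue, was at 1.41, 0.893, 0.796 and 0.641 FPKM in isolated islets, at 0.278, 1.28, 1.55 and 3.20 FPKM at day 60 and at 2.26, 3.23, 2.41 and 3.40 FPKM at day 120. It was the member called at day 120 and not at day 60, with log2 changes of 0.99 (SE 0.296, adjusted p = 0.0257) and 0.30 (SE 0.296, adjusted p = 0.421). The difference between the graft groups itself was 0.68 and did not pass (adjusted p = 0.49). Day 60 library 1 had the lowest Mmp24 level of the 12, and without it the day 60 change was 0.60 and called (adjusted p = 0.0484). The day 120 call of Mmp24 was lost in 5 of these 12 fits (highest adjusted p = 0.0768). Exons of Mmp24 overlap those of BC029722, which stood at 18.8 to 39.3 FPKM over the 12 libraries, and reads of the pair cannot be told apart.

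Mmp15, another membrane-type enzyme, did not pass at either time, with log2 changes of 0.18 and 0.17. Islet library 1 was at 5.02 FPKM against 1.20 to 1.24 FPKM in the other isolated islets, and the other isolated islets lay within the day 60 range of 1.11 to 2.92 FPKM and level with the lowest day 120 graft, at 1.24 FPKM. Among the remaining metalloproteinases only Mmp19, which cuts basement membrane proteins, was tested. Mmp19 was at 0.08, 0.099, 0.156 and 0.095 FPKM in isolated islets, at 10.1, 0.938, 3.46 and 1.47 FPKM at day 60 and at 1.77, 1.08, 0.845 and 1.99 FPKM at day 120. All grafts were above all islets, and the log2 change was 1.82 at day 60 (SE 0.419, adjusted p = 0.00502) and 1.1 at day 120, where it did not pass (SE 0.419, adjusted p = 0.0608). Without day 60 library 1, Mmp19 was called at day 120 as well (adjusted p = 0.00411). Its exons overlap those of Tmem198b, which stood at 1.22 to 2.26 FPKM in isolated islets and 3.47 to 8.94 FPKM in grafts and cannot be told apart from it in this kit.

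**Figure D4:**
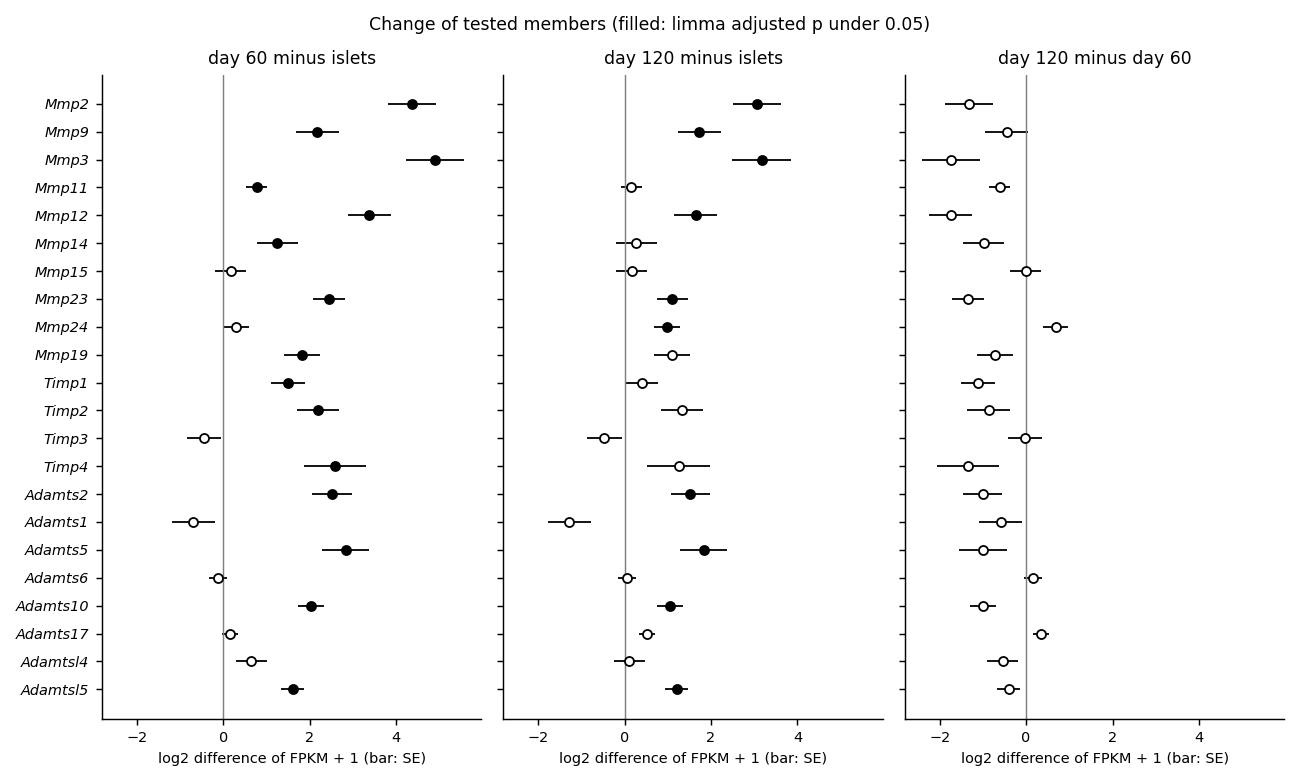
Log2 difference of FPKM + 1 for the 22 tested members in the 3 comparisons, with bars of 1 SE from the limma fit and filled points where the adjusted p was under 0.05. Most day 60 points lie to the right of 0, with Mmp3 at 4.90 and Mmp2 at 4.37, and the comparison of day 120 with day 60 has 0 filled points.

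Of the 4 tissue inhibitors, 3 were higher at day 60 and 0 passed at day 120, where 31.3% and 24.3% of all tested genes were higher. One of the inhibitors, Timp4, was under 1 FPKM in every isolated islet library and passed the filter only through the grafts. Timp2, which also takes part in the activation of Mmp2 by Mmp14, stood at 18.3, 11.2, 8.61 and 8.75 FPKM in isolated islets, at 176, 26.5, 48.5 and 39.2 FPKM at day 60 and at 32.9, 24.2, 18.8 and 51.1 FPKM at day 120. All grafts were above all islets. The log2 change was 2.19 at day 60 (SE 0.491, adjusted p = 0.00455) and 1.33 at day 120 (SE 0.491, adjusted p = 0.0554). Day 120 did not pass for Timp2, but did with the replicate number as a block (adjusted p = 0.0304) and without day 60 library 1 (adjusted p = 0.00553). No label pairs a graft with an islet library, so the block has no stated basis in this comparison.

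Timp1, the inhibitor that is typically induced by inflammation and injury, was at 1.19, 2.23, 0.982 and 1.92 FPKM in isolated islets, at 17.5, 3.96, 3.63 and 5.28 FPKM at day 60 and at 3.01, 1.31, 2.03 and 3.34 FPKM at day 120. The day 60 grafts were above all other libraries, and the day 120 grafts overlapped the islets. Its log2 change was 1.51 at day 60 (SE 0.389, adjusted p = 0.00897) and 0.39 at day 120 (SE 0.389, adjusted p = 0.451). Timp4, an inhibitor known from heart and fat, stood at 0.807, 0.126, 0.712 and 0.482 FPKM in isolated islets, at 49.6, 3.04, 12.8 and 1.38 FPKM at day 60 and at 4.09, 1.74, 3.18 and 1.80 FPKM at day 120. All grafts were above all islets for Timp4, but its day 60 levels spread widely, and the largest stood in the libraries with the highest fat cell marker sums, 9907 FPKM in day 60 library 1 and 3066 FPKM in library 3, against 595 and 255 FPKM in libraries 2 and 4. The part of fat cells in this was not tested. The log2 change of Timp4 was 2.59 at day 60 (SE 0.721, adjusted p = 0.0132) and 1.25 at day 120, where it did not pass (SE 0.721, adjusted p = 0.195).

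Timp3 was the inhibitor with no call. It stood at 39.3, 42.5, 42.6 and 30.6 FPKM in isolated islets, at 49.6, 19.2, 15.5 and 41.4 FPKM at day 60 and at 32.9, 17.4, 18.1 and 54.5 FPKM at day 120. Libraries 2 and 3 of both graft groups lay below every isolated islet library, while libraries 1 and 4 did not. The log2 change was -0.44 at day 60 (SE 0.4, adjusted p = 0.39) and -0.47 at day 120 (SE 0.4, adjusted p = 0.377). Timp3 made up 65.9% to 80.5% of the Timp sum in isolated islets, 17.0% to 47.4% at day 60 and 39.0% to 49.2% at day 120, and these ranges of grafts and islets did not overlap. Exons of Timp3 and Timp4 overlap those of Syn3 and Syn2 on the other strand, and Timp1 lies within Syn1 without sharing an exon. Syn3 was at most 1.03 FPKM and Syn2 stood at 2.56 to 8.78 FPKM over the 12 libraries, and reads of overlapping exons cannot be told apart.

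The Mmp genes summed to 25.5, 14.3, 12.6 and 11.2 FPKM in isolated islets, to 563, 61.5, 104 and 90.8 FPKM at day 60 and to 58.9, 45.6, 32.9 and 85.4 FPKM at day 120. Timp sums were 59.6, 56.1, 52.9 and 41.7 FPKM, then 292, 52.7, 80.5 and 87.2 FPKM, then 72.8, 44.6, 42.1 and 111 FPKM, so the Timp sums of grafts and islets overlapped and the Mmp sums did not. The ratio of the Mmp sum to the Timp sum was 0.237 to 0.428 in isolated islets, 1.04 to 1.93 at day 60 and 0.771 to 1.02 at day 120, and the 3 ranges did not overlap. Mmp2 and Mmp3 together made up 1.80% to 9.68% of the Mmp sum in isolated islets, 47.5% to 66.0% at day 60 and 37.4% to 53.6% at day 120. These are ratios of RNA levels and give neither protein nor enzyme activity.

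**Figure D5:**
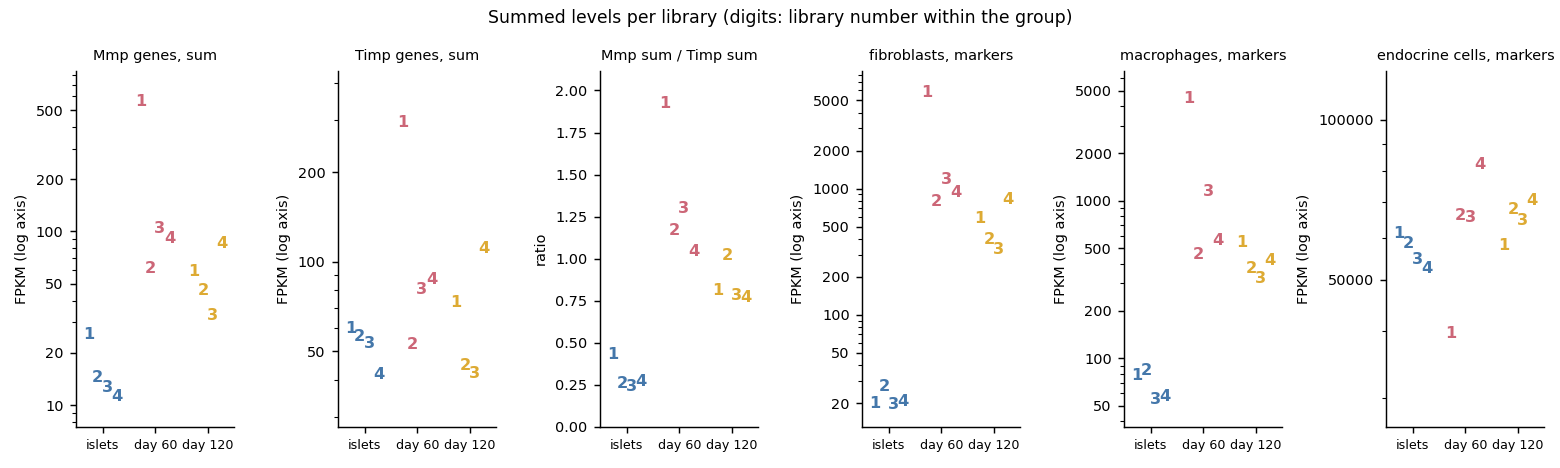
Summed FPKM of the Mmp and Timp genes, their ratio, and summed FPKM of fibroblast, macrophage and endocrine markers in each library, with digits giving the library number; all axes but that of the ratio are logarithmic. The Mmp to Timp ratio is under 0.5 in isolated islets and above 0.75 in every graft, and day 60 library 1 has the highest Mmp, fibroblast and macrophage sums with the lowest endocrine sum.

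Of the procollagen N-proteinases, which remove the amino-terminal propeptide of fibrillar collagens, 1 of 3 was tested. Adamts2 was at 1.06, 0.798, 0.461 and 0.371 FPKM in isolated islets, at 23.4, 3.44, 7.01 and 8.24 FPKM at day 60 and at 4.13, 2.30, 2.24 and 8.04 FPKM at day 120. All grafts were above all islets, with a log2 change of 2.52 at day 60 (SE 0.453, adjusted p = 0.00162) and 1.51 at day 120 (SE 0.453, adjusted p = 0.0255). Leaving out 1 library ended the day 120 call of Adamts2 in 5 of 12 fits (highest adjusted p = 0.0768). Its relative Adamts14 stayed under 1 FPKM in all libraries, and Adamts3 under 0.1 FPKM.

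The proteoglycanases Adamts1 and Adamts5 stood apart from each other. Adamts5, the main enzyme of aggrecan breakdown in mouse cartilage, was at 0.196, 0.164, 0.218 and 0.092 FPKM in isolated islets, at 32.5, 3.03, 9.43 and 2.39 FPKM at day 60 and at 3.07, 2.26, 4.75 and 2.86 FPKM at day 120. All grafts of Adamts5 were above all islets, with a log2 change of 2.83 at day 60 (SE 0.551, adjusted p = 0.00237) and 1.83 at day 120 (SE 0.551, adjusted p = 0.0266). Leaving out 1 library ended its day 120 call in 6 of 12 fits (highest adjusted p = 0.0674). Adamts1, which cuts versican and aggrecan, was at 8.22, 6.06, 5.32 and 5.49 FPKM in isolated islets, at 16.7, 1.30, 1.87 and 2.36 FPKM at day 60 and at 2.16, 1.56, 1.42 and 2.88 FPKM at day 120. Of the 8 grafts, 7 were below every isolated islet library, and day 60 library 1 was above them all. The log2 change of Adamts1 was -0.69 at day 60 (SE 0.499, adjusted p = 0.278) and -1.28 at day 120 (SE 0.499, adjusted p = 0.0657), neither of which passed. Without day 60 library 1 both passed, at -1.36 (adjusted p = 0.000699) and -1.28 (adjusted p = 0.000754). With the replicate number as a block day 120 passed (adjusted p = 0.0408), although no label pairs grafts with islet libraries. Adamts1 was singled out after its values were seen.

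Of the other ADAMTS genes, 3 of 9 were tested. Adamts10, which is known to act in the formation of fibrillin microfibrils, was at 0.823, 0.375, 0.324 and 0.341 FPKM in isolated islets, at 4.93, 9.90, 3.02 and 3.90 FPKM at day 60 and at 1.14, 2.08, 1.79 and 3.41 FPKM at day 120. All grafts were above all islets, and here library 2, not library 1, was the highest at day 60. The log2 change was 2.04 at day 60 (SE 0.301, adjusted p = 0.000597) and 1.05 at day 120 (SE 0.301, adjusted p = 0.0216), and the latter call was lost in 5 of the 12 fits without 1 library (highest adjusted p = 0.0667). Adamts17 had 0.571 to 1.05 FPKM in isolated islets and 1.39 to 1.58 FPKM at day 120 without overlap, and its log2 change of 0.51 did not pass (adjusted p = 0.052). Adamts6 stayed between 0.463 and 1.81 FPKM in all 12 libraries with overlapping groups.

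Of the ADAMTS-like genes, 2 of 5 were tested. Adamtsl5, a microfibril-binding protein of this family, was at 0.875, 0.069, 0.273 and 0.252 FPKM in isolated islets, at 5.0, 2.68, 2.56 and 2.5 FPKM at day 60 and at 1.08, 2.70, 1.84 and 3.09 FPKM at day 120. All grafts were above all islets, with a log2 change of 1.61 at day 60 (SE 0.264, adjusted p = 0.00102) and 1.20 at day 120 (SE 0.264, adjusted p = 0.00787). Adamtsl4 did not pass at either time (0.65 and 0.10), with islet library 1 at 2.99 FPKM against 0.397 to 0.551 FPKM in the other isolated islets. Without islet library 1, its day 60 change was 1.00 and called (adjusted p = 0.0145).

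The 29 members under the filter were 13 Mmp, 13 Adamts and 3 Adamtsl genes. Of these, 16 never reached 1 FPKM in any library, 13 reached it in at least 1, and 15 were listed at 0 in at least 1 library. Mmp1a was listed at 0 in all 12. With the filter lowered to 0.1 FPKM in 4 libraries, 20 of them could be tested: 5 were higher and 1 lower at day 60, where 28.4% and 10.9% of 16821 genes were, and 0 were higher and 2 lower at day 120, where 19.3% and 6.46% were. Those higher at day 60 were Mmp10 at a log2 change of 1.5 (adjusted p = 0.032), Mmp28 at 1.12 (adjusted p = 0.0113), Adamts15 at 0.88 (adjusted p = 0.00592), Adamtsl1 at 0.82 (adjusted p = 0.0216) and Adamts14 at 0.38 (adjusted p = 0.00603). Mmp13 fell by 0.88 on the log2 scale at day 60 (adjusted p = 0.000899) and by 0.82 at day 120 (adjusted p = 0.00289). Adamts4, an aggrecan-cutting enzyme, fell by 0.62 at day 120 (adjusted p = 0.035). Its isolated islets were at 0.776, 0.902, 0.994 and 0.463 FPKM and its day 120 grafts at 0.297, 0.07, 0.086 and 0.184 FPKM.

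Mmp8, the collagenase stored in neutrophil granules, was listed at 0 in all isolated islets. It was at 0.76, 0.134 and 0.089 FPKM in day 60 libraries 1, 2 and 4, at 1.87, 0.506 and 0.088 FPKM in day 120 libraries 1, 2 and 3, and listed at 0 in the other grafts. The sum of 8 neutrophil markers had the same order over the day 120 grafts, with 452, 153, 44.7 and 11.8 FPKM, while it ran from 0 to 3.31 FPKM in isolated islets. Over the day 60 grafts it was 183, 58.9, 24.6 and 17.0 FPKM, where library 3, with Mmp8 listed at 0, had a higher sum than library 4. Of these markers, Camp and Mpo were listed at 0 in all 12 libraries. The part of neutrophils in the Mmp8 and Mmp9 levels was not tested.

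Direct comparison of the graft groups gave no call among the 22 tested members. By limma 0 were higher and 0 lower at day 120 than at day 60, where 0.00744% of all tested genes, 1 gene, was higher and likewise 0.00744% lower. At an unadjusted p under 0.05, 1 was higher and 8 were lower. The share of all tested genes at this unadjusted threshold was not counted, so these counts are not read as particular to the members. The estimate was negative for 19 of the 22, with a median log2 difference of -0.80 against 0.03 over all tested genes. Without day 60 library 1 it was negative for 15 of the 22, with a median of -0.32, and the estimates of Adamts1, Mmp9, Mmp15 and Timp3 turned positive. Mmp3, Mmp23 and Timp1 were lower in every day 120 graft than in every day 60 graft, by -1.73, -1.35 and -1.11 on the log2 scale, with an adjusted p of 0.49 each. Removing day 60 library 1 left the count at 0 in both directions, and so did the fit of the 8 grafts with the replicate number as a block.

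Genes that act beside these enzymes were read from lists of related proteins. A listed gene under 1 FPKM in every isolated islet library passed the filter only through the grafts, which favours genes that were higher there. Pcolce2 and Htra3 below are such genes. Over all tested genes, 31.3% were higher and 12.3% lower at day 60, and 24.3% and 7.03% at day 120. The procollagen C-proteinases and their enhancers, which remove the other propeptide of fibrillar collagens, had 3 of 3 tested genes higher at both times. Pcolce rose from a mean of 2.29 FPKM to 57.7 FPKM at day 60 and 21.1 FPKM at day 120, by 3.81 and 2.65 on the log2 scale (adjusted p = 0.000267 and 0.00365). Pcolce2 rose by 3.19 and 2.29, and Bmp1, the proteinase itself, by 0.48 and 0.49. Of 8 cysteine and serine matrix proteases, 6 were higher at day 60 and 4 at day 120, with 0 lower. The collagen-cutting cathepsin Ctsk rose by 4.15 and 2.75 (adjusted p = 0.000857 and 0.0106), Htra3 by 3.69 and 2.44, Htra1 by 3.29 and 1.91 and the macrophage cathepsin Ctss by 2.70 and 1.51.

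Of 7 tested ADAM sheddases, which release membrane proteins, 6 were higher at day 60 and 2 at day 120, with 0 lower. Adam8 rose by 1.93 and 0.92 (adjusted p = 0.00114 and 0.0469) and Adam19 by 1.48 and 0.80 (adjusted p = 0.000552 and 0.0168). Adam8 and Adam19 were under 1 FPKM in every isolated islet library and passed the filter only through the grafts. Of 7 tested genes for activation and cell surface control, 2 were higher and 1 lower at day 60, and 1 was higher and 1 lower at day 120. The shares over all tested genes were 31.3% and 12.3% at day 60, and 24.3% and 7.03% at day 120. Reck, a membrane-anchored inhibitor of metalloproteinases, rose by 0.73 and 0.72 (adjusted p = 0.012 and 0.02). Lrp1, an endocytic receptor for these enzymes, rose by 1.52 at day 60 (adjusted p = 0.00783), and the integrin subunit Itgav fell by 1.65 and 1.31 (adjusted p = 0.000925 and 0.00581).

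The plasminogen system, whose product plasmin activates several metalloproteinases, was read in the same way. Of its 5 tested genes, 2 were higher and 1 lower at day 60, where 31.3% and 12.3% of all tested genes were. At day 120, 0 were higher and 1 lower, where 24.3% and 7.03% were. The urokinase receptor Plaur fell by 2.06 and 2.62 (adjusted p = 0.00103 and 0.000477), from a mean of 18.7 FPKM to 3.32 and 1.88 FPKM. Urokinase itself, Plau, rose by 1.44 at day 60 (adjusted p = 0.0303), and the protease inhibitor Serpine2 by 1.22 (adjusted p = 0.00948). Among 4 tested substrates, 3 were higher and 1 lower at day 60, and 1 was higher and 1 lower at day 120. Elastin, Eln, rose by 2.79 and 1.76 (adjusted p = 0.000104 and 0.00331), Nid1 by 2.29 and Fbn1 by 1.86 at day 60, while Thbs1, a thrombospondin, fell by 2.34 and 2.23 (adjusted p = 0.000916 and 0.00275). Eln and Fbn1 were under 1 FPKM in every isolated islet library and passed the filter only through the grafts.

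Markers of cells that surround or enter a graft were read as well. The counts stand beside 31.3% higher and 12.3% lower over all tested genes at day 60, and 24.3% and 7.03% at day 120. All 8 fibroblast markers were higher at both times, and their sum was 19.5 to 26.9 FPKM in isolated islets, 793 to 5741 FPKM at day 60 and 330 to 814 FPKM at day 120. Of 8 macrophage markers, 8 were higher at day 60 and 7 at day 120, with sums of 55.1 to 83.4, 456 to 4476 and 322 to 542 FPKM. Fat cell markers were higher for 7 of 7 genes at day 60 and 6 of 7 at day 120, and mast cell markers for 4 of 5 at both times. Endothelial markers were higher for 2 of 7 at day 60 and 1 of 7 at day 120, and those of pericytes and smooth muscle for 3 and 2 of 7. Of 8 neutrophil markers, 3 were tested, S100a8, S100a9 and Retnlg, and all 3 were higher at both times. These 3 were under 1 FPKM in every isolated islet library, so they passed the filter only through the grafts. The same held for markers of other lists, among them Mcpt4, Pdgfra, Plin1 and Mrc1. Untested Ltf had means of 0.769 FPKM in isolated islets (highest 3.02), 0.065 FPKM at day 60 and 0.12 FPKM at day 120. Duct markers were lower for 3 of 5 at both times. Of these markers, Krt19, Sox9 and Muc1 were under 1 FPKM in every graft, so they passed the filter only through the isolated islets. Schwann cell markers were higher for 2 and lower for 1 of 5 at day 60 and higher for 1 and lower for 1 at day 120. Endocrine markers were higher for 1 and lower for 1 of 10 at each time. Of the skin and mammary epithelium markers, 2 of 6 were tested, with 2 higher at day 60 and 1 at day 120, and Krt5, Krt14 and Krt15 were listed at 0 in all grafts. Within the graft groups, day 60 library 1 and day 120 library 4 had the highest fibroblast sums, and they were also the highest of their group for 18 and 15 of the 22 tested members. Day 120 library 4 had the highest endocrine, duct and endothelial sums of its group as well. Islet library 1 was the highest isolated islet library for 15 of the 22, but its fibroblast sum was 20.0 FPKM against 26.9 FPKM in islet library 2. The part of these cells in the differences was not tested, and in bulk RNA a different number of cells of a type cannot be told apart from a different amount of RNA per cell.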

How the data were processed

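RNA from 4 isolated islet, 4 day 60 graft and 4 day 120 graft libraries was sequenced after amplified cDNA synthesis from 10 ng of total RNA and 15 cycles of PCR, per the labels' protocols. The authors deposited FPKM, 1 value per gene symbol and library, made with TopHat2, Cufflinks 2.1.1 and mm9, per the submitters' processing notes. Gene annotation, program options and between-library scaling are not given in the sources used here. Since depth is unknown, no counting error is given.

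From the deposited FPKM, log2(FPKM + 1) was tested with limma 3.58.1 (statmod 1.5.0, R 4.3.3): group as the only term over all 12 libraries, mean-variance trend, robust variances, two-sided tests, genes at 1 FPKM or more in at least 4 libraries (13433 tested, 9801 not), Benjamini-Hochberg adjustment over all of them and a threshold of 0.05. The fit was tested on simulated data. Members came from the symbol rule alone; the members and lists were chosen with earlier results of these data known. Values in every library are given for called members, the Timp genes, Mmp2, Mmp9 and Mmp14, up to 4 genes with the smallest p are named per pathway list, and marker lists are given by count and sum; other genes given with values, including Mmp7, Mmp8, Mmp10, Mmp13, Mmp15, Mmp27, Adamts1, Adamts4, Adamts6, Adamts17 and Adamtsl4, were singled out after their values were seen. The alternatives were another pseudocount, other filters, 4 other scalings, array weights, the 2 groups compared alone, a replicate block and each library left out. Leaving out a library and rescaling kept the 13433 genes. The block for the 8 grafts alone was added after seeing the data. Same-numbered day 60 and day 120 grafts deviated together, with correlations over all tested genes of 0.18 to 0.442, but the labels state no pairing. Correlations of same-numbered grafts and isolated islets ran from -0.0784 to 0.0199 and show no pairing. Promoter windows and the order of neighbours are from RefSeq on GRCm38.p6 and gene overlaps from GENCODE on GRCm38, so no coordinate is set beside mm9 values. Some overlaps of members with other genes are not reported here.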

Additional observations from a re-analysis of the deposited data

Results flagged for a closer look

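A gene in 1 group of 4 libraries was looked at where it reached 1 FPKM, which gave 73 such sets. In 9 of them the highest or lowest library lay far from the other 3 on the log2(FPKM + 1) scale. Chance gives about 1 in 20 in groups not chosen by level, but 4 of the 9, Mmp7, Mmp10, Mmp27 and Adamtsl4, reached 1 FPKM in their group only through the outlying library, so the share of sets is not read against it. In 6 of these the library was day 60 library 1: Mmp3 at 247.4 FPKM against 17.3 to 24.9, Mmp23 at 16.8 against 4.09 to 5.18, Mmp10 at 11.6 against 0.697 to 0.986, Mmp27 at 9.03 against 0.466 to 0.552, Adamtsl5 at 5.0 against 2.5 to 2.68, and Adamts17, here the lowest, at 0.357 against 1.08 to 1.27 FPKM. In the other 3 it was islet library 1: Mmp7 at 7.26 FPKM against 0 to 0.226, Mmp15 at 5.02 against 1.20 to 1.24 and Adamtsl4 at 2.99 against 0.397 to 0.551 FPKM.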

How the results depend on the processing

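The 25 calls of single members were each recomputed under 23 other settings. Of these 575 results, 497 kept the call, 78 lost it and 0 changed sign. Of the calls lost, 18 were that of Mmp14 at day 60, and the day 120 calls of Mmp2, Mmp3 and Adamtsl5 were lost with endocrine scaling alone. The count higher at day 60 ran from 12 with quantile normalization to 19 with array weights or lower filters. Over all tested genes the share was 17.8% with quantile normalization and 54.0% with array weights. It was 28.4% with the filter of 0.1 FPKM and 23.5% without a filter. The count lower at day 60 went from 0 to 1 without a filter, with the filter of 0.1 FPKM (Mmp13 in both), with quantile normalization (Adamts6) and without islet and day 60 libraries 1 together (Adamts1), and to 2 with array weights (Adamts1 and Timp3). It ran from 0 to 1 when single libraries were left out. At day 120 the 10 higher became 4 under quantile normalization and 0 when scaled by endocrine genes, and ran from 3 to 14 when single libraries were left out: 3 without islet library 2, islet library 4 or day 120 library 4, 4 without islet library 3, 6 without day 120 library 1 or 2, and 14 without day 60 library 1. Over all tested genes, the share higher at day 120 was 11.4% under quantile normalization and 1.18% with endocrine scaling. With single libraries left out, that share ran from 10.7% without islet library 4 to 35.3% without day 60 library 1. The 0 lower at day 120 became 2 without a filter and with the filter of 0.1 FPKM (Mmp13 and Adamts4), and 1, Adamts1, under scaling by the upper quartile or by a sum that leaves out hormone and acinar genes, under quantile normalization, with the 2 groups alone, with array weights, with the replicate block and without both libraries 1. It ran from 0 to 1 when single libraries were left out. Between the graft groups, array weights alone gave calls, 1 higher and 12 lower, where 7.80% of all tested genes were higher and 13.6% lower. The estimation of these weights stopped before it converged. The cause of these differences was not tested. With the replicate block, which pairs libraries of the same number, 15 members were higher at day 60 and 11 at day 120, Timp2 being the one added, and it changed no other call beside Adamts1. Of all called genes at day 60, 71.8% were higher as deposited, 60.6% with upper-quartile scaling, 45.4% with the sum scaling, 45.2% with quantile normalization and 87.6% with endocrine scaling. At day 120 these were 77.6%, 63.8%, 59.6%, 45.6% and 35.3%. Depth, unknown here, limits what can be said of members near 0 FPKM.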
